A study of Sus scrofa with 5 samples.

Results

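The cells described here were picked from single-cell RNA data of pig skin as candidate mature dendritic cells marked by CCR7. A cell was taken when it had at least 500 detected genes, at least 1 UMI (unique molecular identifier, the count of 1 captured RNA molecule) of CCR7, at least 1 UMI of CD83 and at least 5 UMIs of HLA-DRA. It also had to have 0 UMIs of CD3E and CD3D together, fewer than 5 UMIs of C1QB and C1QC together, and less than 2% of its UMIs from COL1A1, COL1A2 and COL3A1. This gate took 476 of 28654 cells, or 1.66%. Each pig received full-thickness wounds that were closed with a split-thickness skin graft (STSG), and the graft was left untreated or was dressed with a hydrogel carrying FAKI, an inhibitor of focal adhesion kinase, with the dressing renewed every other day. The 5 libraries were STSG+FAKI at day 7, STSG at day 7, STSG+FAKI at day 90, STSG at day 90 and unwounded skin, with 1 library per group. Freshly digested tissue was captured with 10x Chromium Single Cell 3' v3 chemistry, several pigs were used, and the number of animals behind each library was not stated. Differences between libraries therefore have no replicate check and no test, and every interval covers counting error only.

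Dendritic cells take up antigen in the skin and present it to T cells. When they mature they reduce uptake, place MHC class II and costimulatory proteins on the surface, and begin to make CCR7, the chemokine receptor that leads them along CCL19 and CCL21 into lymphatic vessels and on to the draining lymph node. The mature state is also known for CD83, which stabilises surface MHC class II, for fascin (FSCN1), which bundles actin in dendrites, for the T cell attracting chemokines CCL17 and CCL22, and for the regulatory enzymes IDO1 and IL4I1. CCR7 is not confined to dendritic cells, since B cells and naive T cells also carry it.

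Library totals ran between 18485301 and 79671374 UMIs. Median UMIs per gated cell were 7401 in STSG+FAKI day 7, 10145 in STSG day 7, 18780 in STSG+FAKI day 90, 11419 in STSG day 90 and 42223 in unwounded skin. Some barcodes occurred in more than 1 library. Unwounded skin shared 152 barcodes with STSG+FAKI day 90 and 133 with STSG day 90, and those day 90 libraries shared 70 with each other, while the other pairs shared 3 to 32. No barcode was gated in 2 libraries, but 2 of the 4 gated barcodes of unwounded skin and 2 of the 11 of STSG+FAKI day 90 were also listed in another library.

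CCR7, the gate's defining gene, had between 1 and 61 UMIs per gated cell with a median of 5. CD83 had between 1 and 77 with a median of 7, and HLA-DRA between 5 and 578 with a median of 82. These values chose the cells and are given as a description. Summed over the gated cells of a library, CCR7 had 905, 707, 159, 634 and 250 CPM (UMIs per 1000000 UMIs of those cells) in STSG+FAKI day 7, STSG day 7, STSG+FAKI day 90, STSG day 90 and unwounded skin. It was highest in the day 7 libraries and lowest in STSG+FAKI day 90. BCL2A1, an anti-apoptotic BCL2 relative that was not used for the choice, had between 0 and 149 UMIs with a median of 23 and was detected in 90.1% of gated cells, against 3.70% of fibroblast-rich cells. Its summed level was 3142.5, 2577, 1381 and 1687 CPM in the 4 graft libraries, in the same order, and 11.6 CPM in the 4 gated cells of unwounded skin. In the clustering described below, 3 of those 4 cells were endothelial-like and 1 was B or plasma-like. Fibroblast-rich cells had at least 5% of their UMIs from the 3 collagen genes and library medians between 10491 and 18115 UMIs, and they serve throughout as cells that should lack immune genes. CCR7 itself had a UMI in 1.62% of them. Just inside the gate, 94 cells (19.7%) had exactly 1 CCR7 UMI and 25 had 5 to 9 HLA-DRA UMIs. Just outside it, 2033 cells missed only the CCR7 threshold, 193 only the C1Q limit, 71 only CD83, 64 only HLA-DRA, 26 only the CD3 limit and 12 only the collagen limit.

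Gated cells made up a larger share of the day 7 grafts than of the day 90 grafts and of unwounded skin. The share was 2.35% (221 of 9386 cells, 95% Clopper-Pearson interval 2.06 to 2.68) in STSG+FAKI day 7 and 2.54% (207 of 8147, 2.21 to 2.91) in STSG day 7. It was 0.287% (11 of 3829, 0.143 to 0.513) in STSG+FAKI day 90, 0.578% (33 of 5706, 0.398 to 0.811) in STSG day 90 and 0.252% (4 of 1586, 0.0688 to 0.644) in unwounded skin. The intervals of both day 7 libraries overlapped each other and lay above those of the other 3 libraries, and the intervals of both day 90 libraries overlapped. Deeper cells pass a gate on UMIs more easily, so each cell was also thinned to 3000 UMIs, which left out the 6185 shallower cells. The CD3 and C1Q limits were also applied to the thinned counts and became easier to meet, and thinning was a single random draw. The thinned share was 2.11% and 2.05% in STSG+FAKI day 7 and STSG day 7, 0.0297% (1 of 3372 cells) in STSG+FAKI day 90, 0.382% in STSG day 90 and 0 of 1346 cells in unwounded skin, which allows up to 0.274%. After thinning, the intervals of STSG+FAKI day 90 and STSG day 90 no longer overlapped (0.000751 to 0.165 against 0.230 to 0.596).

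The day 7 shares of 2.23% and 2.38%, in STSG+FAKI and STSG, differed little when 3 or more UMIs over the leukocyte genes PTPRC, LCP1, CD53, LAPTM5 and CORO1A were required. Under the same requirement, set after seeing the data, the share was 0.183% in STSG+FAKI day 90, 0.561% in STSG day 90 and 0.126% in unwounded skin. Without the barcodes that libraries shared, 9 gated cells were left in STSG+FAKI day 90 (0.244%), 32 in STSG day 90 (0.573%) and 2 in unwounded skin (0.136%). Shares of dissociated cells also move with the number of other cells recovered from each tissue, which was not measured here.

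**Figure D1:**
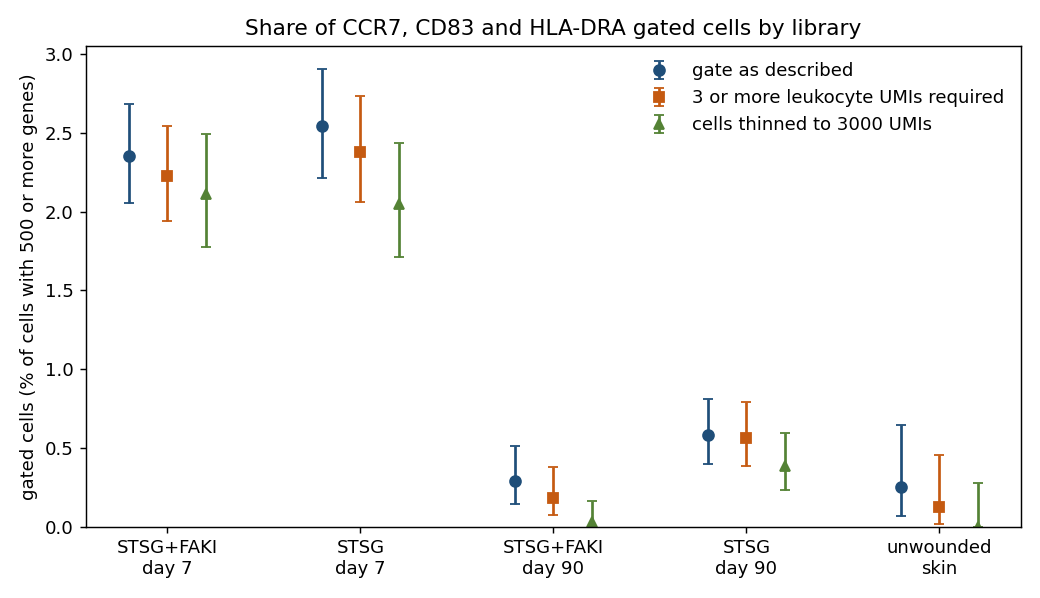
Share of gated cells in each library, as a percentage of cells with at least 500 genes, with 95% Clopper-Pearson intervals (1 library per group). Circles show the gate as described, squares the gate with leukocyte RNA required and triangles cells thinned to 3000 UMIs; the day 7 libraries sit above 2% in each form, and the other 3 libraries at 0.578% or less.

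Markers outside the gate showed a mixture and not 1 cell type. Of the genes that define mature dendritic cells, CCL17 was detected in 10.9% of gated cells, against 0.11% of fibroblast-rich cells, and CCL22 in 4.20%, against 0%. IL4I1 had a UMI in 19.8% of gated cells and 1.14% of fibroblast-rich cells, IDO1 in 34.5% and 0.96%, and CD80 in 35.1% and 0.59%. CD40, the receptor for T cell help, was detected in 80.9% of gated cells and 36.1% of fibroblast-rich cells, and CD86 in 70.2% and 28.4%. FSCN1 (41.0% of gated cells, 81.6% of fibroblast-rich cells) and CCL19 (13.2% and 38.0%) were less frequent than in fibroblast-rich cells and are not read as expression by the gated cells as a whole. LAMP3 was not analysed here. Macrophage markers were also present, with CD163 in 33.6% and CD68 in 36.8% of gated cells, against 0.74% and 2.05% of fibroblast-rich cells. Among B cell genes, MS4A1 was detected in 6.09% and CD79B in 5.46% of gated cells, against 0% and 0.16% of fibroblast-rich cells. CD79A had a UMI in 41.0% of gated cells but also in 19.5% of fibroblast-rich cells.

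The 476 cells fell into 12 clusters on their own variable genes, of which 5, with 167 cells, carried enough of a class's fixed markers to be named, under thresholds set after the data were seen. The mature DC-like cluster held 23 cells, or 4.83% of the gate. Markers were compared with the other gated cells, so maturation genes shared by many clusters would not name any of them. The 4.83% is therefore the size of this cluster and not a measured share of mature dendritic cells. As the label of mature dendritic cells was not shown to fit the whole gate, the cells are called gated cells here. The other named clusters were macrophage-like (63 cells), B or plasma-like (38), endothelial-like (36) and keratinocyte-like (7). A further 7 clusters with 309 cells stayed unnamed. Among these was a cluster of 21 cells with 4 raised markers of plasmacytoid dendritic cells (TCF4, IRF7, SPIB and RUNX2), whose leading genes also held CD8B and CD4. Of the 36 endothelial-like cells, 25 had a single CCR7 UMI and their summed CCR7 was 94.8 CPM. Cells with the highest Scrublet doublet scores were 13 of the 14 cells of the unnamed cluster led by ACTG2 and ACTA2, 6 of the 7 keratinocyte-like cells and 12 of the 36 endothelial-like cells, against 47 of all 476 gated cells.

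The mature DC-like cluster had the highest summed CCR7 level of the 12 clusters. CCR7 stood at 3030 CPM there (Poisson interval 2789 to 3287), with a UMI in 23 of 23 cells, and no cell of the cluster rested on 1 CCR7 UMI. The next cluster by CCR7, the unnamed one led by TAC1 and VPREB1, had 1358 CPM, and the remaining 10 lay between 94.8 and 1191 CPM. The genes below helped to form the cluster and are described without a test. FSCN1 reached 2623 CPM in 23 of 23 cells, against at most 380 CPM in any other cluster. CCL17, the ligand of CCR4 on skin-homing T cells, reached 2137 CPM but came from 12 of the 23 cells. IL4I1, a secreted amino acid oxidase that restrains T cells, had 1139 CPM in 22 cells, and CD40 had 1123 CPM in 22 cells. BATF3, a transcription factor of type 1 conventional dendritic cells, had 1087 CPM in 22 cells and IDO1 977 CPM in 20 cells.

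The same 23 cells carried NF-kB subunits of the alternative pathway, with RELB at 266 CPM in 20 cells and NFKB2 at 298 CPM. IRF4, which dendritic cells need for migration in mice, had 287 CPM in 21 cells. Checkpoint and regulatory ligands were present, with CD274 at 204 CPM in 13 cells and CD200 at 219 CPM in 16 cells. CCL22 was low at 41.8 CPM in 6 cells and CCL19 at 15.7 CPM in 2 cells. The markers XCR1 (1 UMI), CD207 and FCER1A (0 UMIs) of other dendritic cells were at or near 0. No UMI of CD163, CD68, C1QA, MS4A1, CD79B, VWF, IL23A, IL27 or IL10 was seen in these cells. PTPRC, the pan-leukocyte gene, had UMIs in only 2 of the 23 cells, whereas 17 of the 23 reached 3 UMIs over the 5 leukocyte genes. Of these cells 8 came from STSG+FAKI day 7, 12 from STSG day 7 and 3 from STSG day 90. With fewer than 10 cells in 1 of the day 7 libraries, no comparison was made inside this cluster. A cluster led by CCL17 and IL4I1 was also found at the lower clustering resolution (21 cells), and when interferon and cytokine genes were left out of the clustering (20 cells, 19 of them shared).

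**Figure D2:**
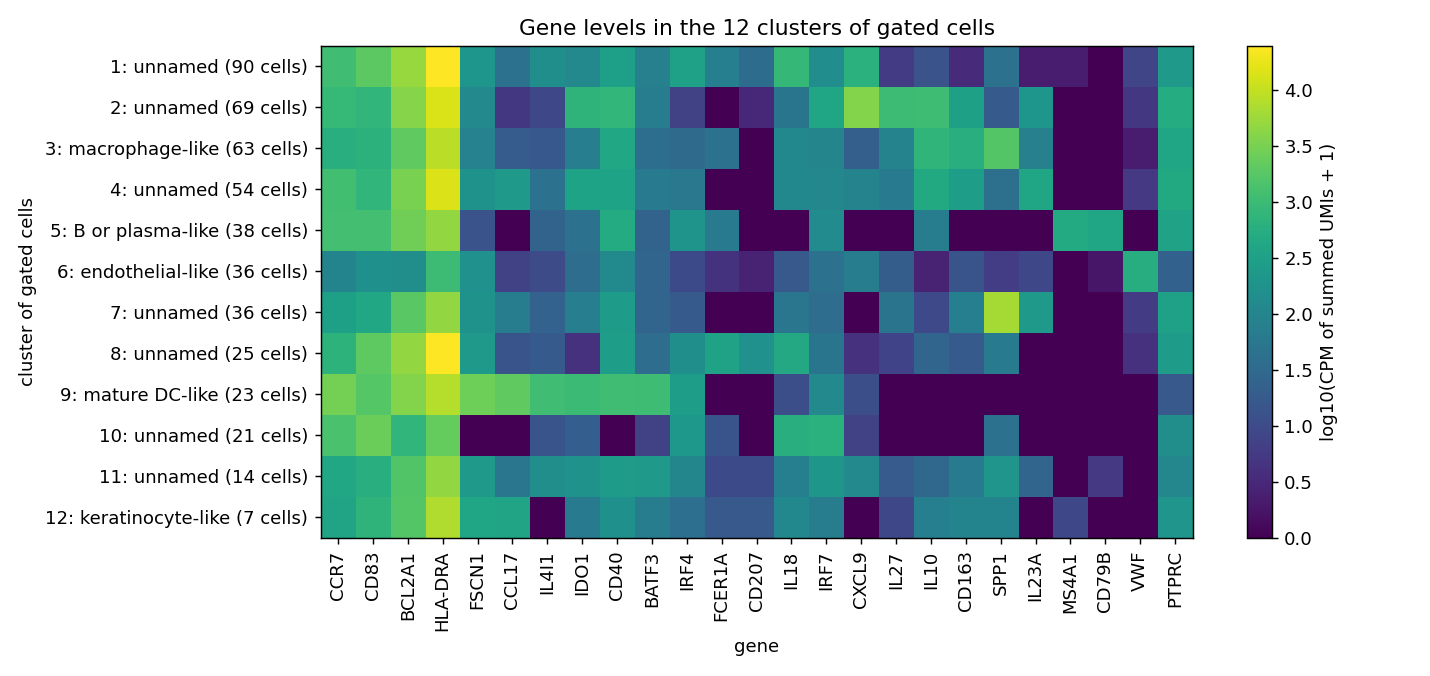
Summed gene levels in the 12 clusters of gated cells, as log10 of CPM + 1, with clusters down the page and genes across. The mature DC-like cluster stands at 3030 CPM for CCR7 and 2623 CPM for FSCN1, while MS4A1, VWF and CD163 are high in other clusters.

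Among the unnamed clusters, the largest (90 cells, led by AQP3, SERPINB1, NTS and IL18) had the highest HLA-DRA level, 24935 CPM, with CCR7 at 1134 CPM, IRF4 at 332 CPM in 59 cells and IL18, an activator of interferon gamma production, at 862 CPM in 66 cells. The cluster of 25 cells led by FCER1A and CD207, genes of type 2 dendritic cells and Langerhans cells, was close to it in HLA-DRA (24752 CPM) and had FCER1A at 338 CPM in 18 cells. CD207 had 164 CPM in only 8 of the 25 cells and EPCAM had UMIs in 6. MS4A2, a mast cell marker, had 529 CPM in 24 cells, while KIT had 0 UMIs. The clusters of 90 and 25 cells had the most CD86, at 442 and 453 CPM. The cluster of 69 cells led by CXCL9, CCL8 and IL27 held 66 cells of STSG+FAKI day 7, so it may be that library and not a cell type. It had CXCL10 at 17390 CPM, IL27 at 1016 CPM in 62 cells and CD40 at 811 CPM. Of 7 macrophage markers, 3 (CD163, CD68 and APOE) were raised in it. The cluster of 36 cells led by SPP1 (6462 CPM) and LGALS3 had 31 cells of STSG day 7 and is bound by the same limit. In the 54 cells led by TGM3 and ARG1, IL23A, the specific subunit of interleukin 23, had 385 CPM from 10 cells and CCR7 1144 CPM. The macrophage-like cluster had CD163 at 564 CPM in 58 of 63 cells, with CCR7 at 575 CPM.

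To find which genes outside the gate went with it, UMIs were summed per library over gated cells and over 2 like populations, and compared with edgeR's quasi-likelihood test with library as a block in the 4 graft libraries, as unwounded skin held under 10 gated cells. The gate genes were left out. The first population, CCR7-negative HLA-DRA cells, passed the rest of the gate with CD83 free, had 0 CCR7 UMIs and at least 3 leukocyte UMIs, and held 1457 cells. Many of these carried endothelial RNA: VWF was detected in 57.1% and PLVAP in 62.5% of them, against 9.45% and 13.9% of gated cells. Of 10438 genes tested, 1336 (12.8%) were higher and 1038 (9.94%) lower in gated cells at a Benjamini-Hochberg adjusted p under 0.05. Without STSG+FAKI day 7 the 2374 calls became 1131 (673 higher, 458 lower) and without STSG day 7 they became 1132 (733 higher, 399 lower). Without the library block they became 606 (362 higher, 244 lower). Leaving out of both populations the cells with 3 or more UMIs over PECAM1, CDH5, VWF and CLDN5, a choice made after seeing the data that dropped STSG+FAKI day 90 for want of cells, left 568 calls of 7274 genes.

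Genes of the mature dendritic cell list were mostly higher in gated cells than in CCR7-negative HLA-DRA cells. Of 34 measured members 30 were tested, 24 rose and none fell, with a median log2 fold change of 2.10 against -0.02 over all genes. The count was 21 of 30 with a median of 0.94 when cells with endothelial RNA were left out, and 14 of 30 without the library block. IL4I1 had 88.6, 79.8, 3.30 and 140 CPM in gated cells of STSG+FAKI day 7, STSG day 7, STSG+FAKI day 90 and STSG day 90, against 5.81, 3.48, 2.55 and 2.04 CPM in CCR7-negative cells. It was clearly higher in gated cells in 3 libraries and close in STSG+FAKI day 90. The log2 fold change of IL4I1 was 4.73 ± 0.46 (SE of the fit, 4 libraries, edgeR adjusted p = 0.00043). Each ± value is the size of the log2 fold change over the square root of the edgeR F statistic. It is not the spread of the ratios between libraries, which for IL4I1 was wide. CCL17 had 158, 138, 19.8 and 22.4 CPM in gated cells, in the same order of libraries, against 0.664, 3.96, 3.35 and 22.0 CPM in CCR7-negative cells. It differed at day 7 and not in STSG day 90, and its log2 fold change of 4.26 ± 1.02 (edgeR adjusted p = 0.018) lost the call without STSG+FAKI day 7, without STSG day 7 and without endothelial RNA, with an adjusted p of 0.138 at most. BCL2A1, which supports survival of activated leukocytes, had 3142.5, 2577, 1381 and 1687 CPM in gated cells, against 613, 597, 55.01 and 173 CPM in CCR7-negative cells. It was higher in every library, by 3.36 ± 0.35 log2 (edgeR adjusted p = 0.00055), and passed in each of 13 alternatives.

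Costimulation moved the same way. Of 12 tested costimulatory and checkpoint genes, 8 rose, among them CD80 (log2 2.65 ± 0.30), CD86 (2.26 ± 0.14), CD274 (2.18 ± 0.20) and PDCD1LG2 (2.32 ± 0.18), and CD276 and VSIR fell. CD40 rose by 1.51 ± 0.13. Without the library block 4 of the 12 rose, and without endothelial RNA 6 did. None of the 12 fell in those settings, nor without STSG+FAKI day 7 or without STSG day 7. Genes of MHC class II presentation rose in 13 of 15 cases, led in level by CD74, the invariant chain (16084, 13555, 15936 and 20321 CPM in gated cells, against 6886, 6299, 8270 and 8778 CPM in CCR7-negative cells). Only 5 of 15 rose and 1 fell once cells with endothelial RNA were left out, and 5 rose without the library block. Over all genes 352 of 7274 were higher and 216 lower without endothelial RNA, and 362 of 10438 higher and 244 lower without the block. The NF-kB list rose in 12 of 23 cases, with NFKB2 at 1.25 ± 0.13 and RELB at 0.88 ± 0.21 log2. That count was 6 of 23 without STSG+FAKI day 7 and 3 of 23 without the library block. Of 30 tested migration and cytoskeleton genes 21 rose and 1, S1PR1, fell, but 10 of 32 rose without endothelial RNA, where the list's median was 0.33, and 4 of 32 without the library block. FSCN1 rose by 0.61 ± 0.16 and CCL19 showed 0.07 ± 0.33 without passing. The interferon response list had 3 genes higher and 4 lower of 36.

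The genes with the largest rises against CCR7-negative cells, beyond IL4I1 and CCL17, were FCRLA (3.89 ± 0.30), AREG, an epidermal growth factor receptor ligand (3.87 ± 0.69), IRF4 (3.56 ± 0.18), GPR183, an oxysterol receptor that positions dendritic and B cells (3.47 ± 0.40), CD1E (3.39 ± 0.49), BCL2A1 (3.36 ± 0.35), LSP1 (3.26 ± 0.30) and IL23A (3.25 ± 0.83), all on the log2 scale. IL23A lost the call without STSG day 90, without the library block and without endothelial RNA, AREG without the block, and CD1E without endothelial RNA. Among the falls below, SLPI and RBP7 lost the call without the block, and CD320 stood at 0.53 without endothelial RNA and did not pass. The largest falls were in SLPI (-3.58 ± 0.49), GPIHBP1, the capillary anchor of lipoprotein lipase (-3.02 ± 0.30), BTNL9 (-3.01 ± 0.39), RBP7 (-2.78 ± 0.53), ABLIM3 (-2.55 ± 0.21), TM4SF18 (-2.54 ± 0.22), CAVIN2 (-2.46 ± 0.18), CD320 (-2.45 ± 0.42), MYO10 (-2.21 ± 0.29) and CLEC3B (-2.21 ± 0.28). The endothelial list fell in 10 of 11 cases. Other cell types' genes also stood higher in gated cells: 10 of 16 macrophage genes and 9 of 15 B or plasma cell genes rose. So did 7 of 8 type 2 and 5 of 6 type 1 conventional dendritic cell genes, 5 of 6 plasmacytoid and 3 of 3 Langerhans cell genes. Of T or NK cell genes 6 of 9 rose, and of keratinocyte genes 4 of 6. In the macrophage, plasmacytoid and T or NK lists 1 gene each fell. The mast cell list had 2 higher and 2 lower of 4, and the fibroblast list 1 and 1 of 7. When cells with endothelial RNA were left out, 1 macrophage gene of 14 rose and 6 fell, and none of 16 rose without the library block.

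Against C1Q cells, fewer genes were called in the main setting, with fewer cells and fewer genes tested. Without endothelial RNA the order was reversed, with 1065 calls of 7040 genes against C1Q cells and 568 of 7274 against CCR7-negative cells. The 536 C1Q cells met the HLA-DRA, CD3 and collagen limits with at least 5 UMIs of C1QB and C1QC and 0 of CCR7. Of 7222 genes tested 390 (5.4%) were higher and 503 (6.96%) lower in gated cells. Without STSG+FAKI day 7, 75 were higher and 215 lower, without STSG day 7 80 and 141, and without the library block 51 and 138. Genes called higher outnumbered those called lower without endothelial RNA (565 and 500 of 7040) and with no filter on low counts (871 and 761 of 14930). Of the mature dendritic cell list 26 members were tested, 9 rose, 1 fell and the median was 0.76 against 0.03 over all genes. That count was 5 of 25 without STSG+FAKI day 7 and 4 of 24 without STSG day 7, and 17 of 29 without endothelial RNA. Without the library block 4 of 26 rose.

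CD1E and IL4I1 had the largest rises of the list against C1Q cells, IL4I1 at 3.75 ± 0.57 log2 (edgeR adjusted p = 0.0062). FSCN1 had 236, 218, 307 and 417 CPM in gated cells of STSG+FAKI day 7, STSG day 7, STSG+FAKI day 90 and STSG day 90, against 24.7, 53.0, 71.8 and 86.8 CPM in C1Q cells. It was higher in every library, by 2.33 ± 0.20 log2 (edgeR adjusted p = 0.0013). CD200 (2.23 ± 0.57), CCL19 (1.91 ± 0.46), BCL2L14 (1.91 ± 0.45), MREG (1.62 ± 0.21), DUSP5 (1.45 ± 0.20) and NFKB2 (0.81 ± 0.15) rose as well, as did BCL2A1 (0.99 ± 0.15). FSCN1 and CCL19 were detected in a larger share of fibroblast-rich cells than of gated cells, and the part of such RNA in these rises was not tested. Of the costimulatory genes CD40 (0.20 ± 0.28), CD80 (0.20 ± 0.31) and CD86 (0.30 ± 0.13) did not pass, and PDCD1LG2 fell by 0.75 on the log2 scale. CD200 and HAVCR2 rose and PDCD1LG2 and VSIR fell of 12 tested, and none of the 12 passed without STSG+FAKI day 7 or without STSG day 7. CCL17 showed 1.25 ± 1.15 (edgeR adjusted p = 0.545).

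Uptake and processing genes were lower in gated cells than in C1Q cells. The antigen uptake list fell in 13 of 17 cases and the macrophage list in 12 of 15, where the C1Q cells had been chosen by complement genes of macrophages. Without STSG+FAKI day 7 the uptake count was 7 of 16 and the macrophage count 7 of 14, without STSG day 7 they were 3 of 15 and 5 of 14, and without the library block 4 of 17 and 5 of 15. Against CCR7-negative cells the uptake list took the other direction, with 12 of 17 genes higher in gated cells and none lower. None of the 17 passed without the library block, and without endothelial RNA 1 of 18 was higher and 3 were lower. Of 14 tested MHC class II presentation genes, the lysosomal proteases CTSL, LGMN, CTSS and CTSH fell with MARCHF1, a ubiquitin ligase that removes class II from the surface, and CD63, while SLA-DQB1 (0.61 ± 0.10) and CD74 (0.43 ± 0.10) rose. Without STSG+FAKI day 7 none of the 14 rose and 5 fell, and without STSG day 7 2 of 13 rose and 3 fell, and without the library block none rose and 1 fell. Among cytokines, IL23A rose and CCL4, CCL2, CCL3L1, TNF and CXCL10 fell. Of 33 interferon genes none rose and 7 fell.

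The largest rises against C1Q cells were in IL23A (5.45 ± 0.59), FCRLA (5.35 ± 0.75), CD1E (3.94 ± 0.31), AQP3 (3.70 ± 0.51), FCER1A (3.44 ± 0.74), AREG (2.81 ± 0.67), SPARCL1 (2.69 ± 0.55), IRF4 (2.52 ± 0.38), SYNPO2 (2.46 ± 0.49) and RAMP1 (2.43 ± 0.22). AQP3 and IRF4 lost the call without STSG day 7, SYNPO2 without either day 7 library or without top doublet scores, FCER1A without STSG+FAKI day 7, without STSG day 90 or without the block, AREG without STSG day 7, without STSG day 90 or without the block, and SPARCL1 without either day 7 library, without the block or without endothelial RNA. The largest falls were in C1QA, the partner of the genes that chose the C1Q cells (-8.92 ± 0.39), C4BPA (-4.86 ± 0.70), the folate receptor FOLR2 (-4.62 ± 0.41), the iron exporter SLC40A1 (-4.41 ± 0.27), CD209 (-4.34 ± 0.42), ACP5 (-3.85 ± 0.45), CCL8 (-3.53 ± 0.73), IGF1 (-3.47 ± 0.44), CCL14 (-3.31 ± 0.38) and CTSL (-3.29 ± 0.75). CCL8 lost the call without either day 7 library, CTSL without STSG day 7 or STSG day 90, and these 2 and ACP5 without the block. The gate chose its cells from the same libraries, so these tests describe which genes accompanied the gate and carry no independent support for a cell type.

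**Figure D3:**
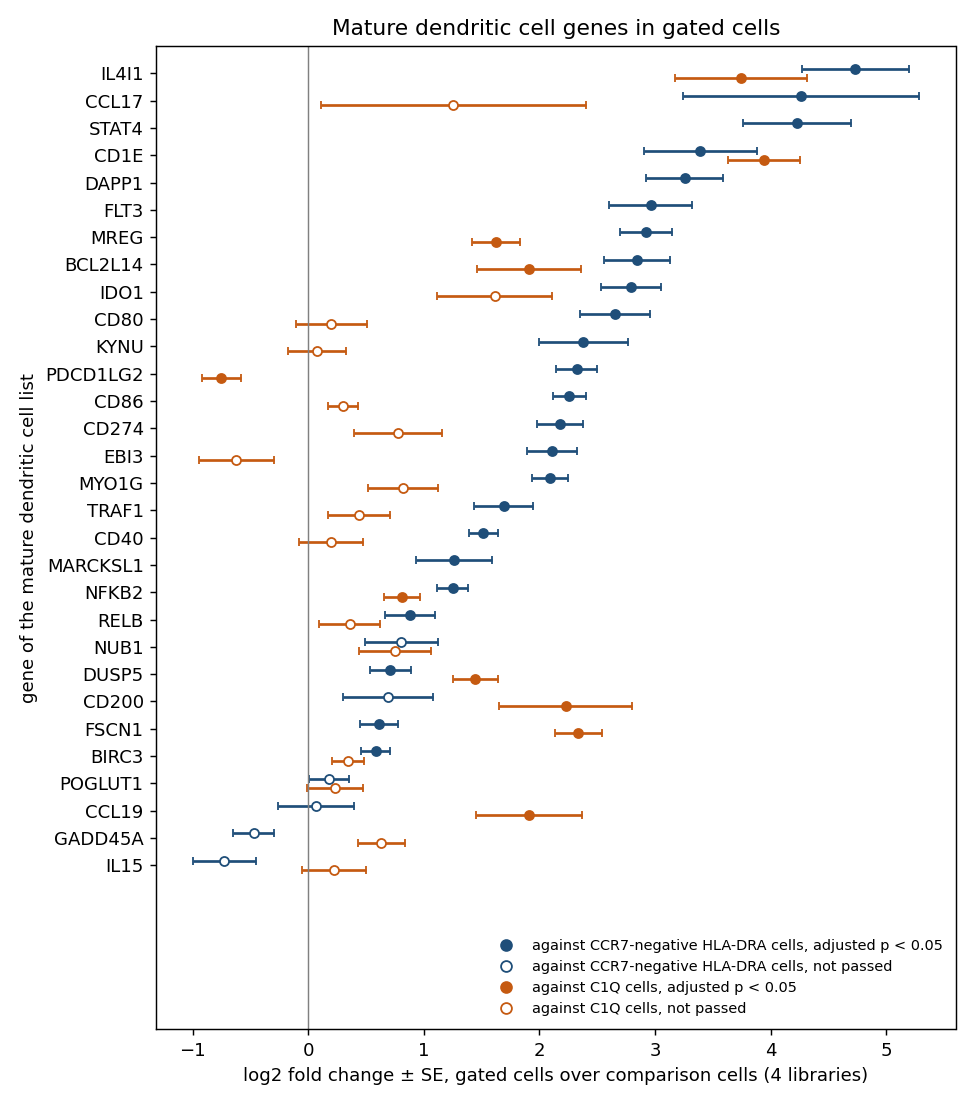
Log2 fold changes of mature dendritic cell genes in gated cells over CCR7-negative HLA-DRA cells (blue) and over C1Q cells (orange), in 4 libraries, with standard errors of the edgeR fit, which are not the spread between libraries. Filled points passed an adjusted p under 0.05. IL4I1 and CD1E are high against both populations, CD80 and CD86 only pass against the CCR7-negative cells, and FSCN1 stands further from the C1Q cells (2.33) than from the CCR7-negative cells (0.61).

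At day 7, interferon response genes were higher in gated cells of the FAKI graft than in those of the untreated graft. UMIs summed over 221 and 207 cells gave 2418 genes at 50 CPM or more in either library, of which 95 (3.93%) were at least 2-fold higher and 37 (1.53%) at least 2-fold lower with FAKI. The clusters that both libraries shared, with at least 10 cells in each, were the AQP3-led, macrophage-like, TGM3-led, B or plasma-like and endothelial-like ones. When these weighed the same, 72 of 2515 genes were higher and 71 lower. That setting left out the clusters led by CXCL9 (66 STSG+FAKI and 2 STSG cells) and SPP1 (4 and 31). It also left out the mature DC-like cluster (8 and 12), so its values do not cover those cells. Of 22 interferon genes 17 were higher and none lower, with a median log2 ratio of 1.40 against -0.0045 over all genes, so 17 of the 95 higher genes and none of the 37 lower ones were on this list. CXCL10, the interferon-induced ligand of CXCR3 on activated T cells, had 6135 CPM in STSG+FAKI, against 351 CPM in STSG, a ratio of 17.5 (16.3 to 18.7), with a UMI in 138 of 221 and 28 of 207 cells. CXCL9 had 1157 CPM in STSG+FAKI and 95.2 CPM in STSG, from 54 and 12 cells. CXCL11 had 752 UMIs in 31 cells of STSG+FAKI and 1 UMI in STSG, a ratio of 968 with a counting interval of 173 to 38297.

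Guanylate-binding and antiviral genes were also higher with FAKI. GBP1, an interferon-induced GTPase, had 482 CPM from 143 cells in STSG+FAKI, against 60.9 CPM from 49 cells in STSG. GBP2 had 58.2 CPM, against 3.93 CPM. The ubiquitin-like ISG15 had 1226 CPM, against 491 CPM, and IFI6 1955 CPM, against 696 CPM. Transcription factors of the response were higher too, with IRF1 at 496 CPM in STSG+FAKI, against 149 CPM in STSG, and IRF7 at 239 CPM, against 79.0 CPM. Each of these genes had a ratio above 2, and each was found in more cells of the FAKI library. With shared clusters weighing the same IFI6 had a log2 ratio of 0.65, below 2-fold.

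Some genes that load MHC class I were higher as well. TAP1, the peptide transporter, had 173 CPM in STSG+FAKI, against 53.1 CPM in STSG, and PSMB9, an immunoproteasome subunit, 365 CPM, against 145 CPM. With TAP2 and PSMB10 they were the 4 of 12 tested class I genes that were higher, and none was lower. With shared clusters weighing the same these 4 were below 2-fold, at log2 0.91 for TAP1, 0.48 for PSMB9, 0.32 for TAP2 and 0.52 for PSMB10. Of 11 MHC class II genes none was past 2-fold in either direction, nor was any of 17 NF-kB or 24 migration genes. Of 19 cytokine genes 4 were higher, none was lower and 15 lay within 2-fold. The higher ones were IL27, a regulatory cytokine (276 CPM in STSG+FAKI, against 43.2 CPM in STSG), TNF (287 CPM, against 77.1 CPM), CXCL9 and CXCL10. With shared clusters weighing the same IL27 stood at a log2 ratio of 0.45, below 2-fold, and TNF took the opposite direction (-1.56). The cluster led by CXCL9, CCL8 and IL27 was not part of that setting.

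Most maturation genes (17 of 21) lay within 2-fold between the day 7 grafts, where 3.93% of all genes were higher and 1.53% lower. Of 21 tested mature dendritic cell genes, IDO1, the tryptophan-degrading enzyme (317 CPM in STSG+FAKI, against 109 CPM in STSG), CD274 (139 CPM, against 56.6 CPM) and NUB1 (141 CPM, against 69.2 CPM) were higher and CD1E (29.4 CPM, against 76.3 CPM) lower. CD274 (log2 0.32) and NUB1 (0.92) were below 2-fold with shared clusters weighing the same. CCL17 had 158 CPM in STSG+FAKI and 138 CPM in STSG, from 18 and 28 cells. IL4I1 had 88.6 and 79.8 CPM in the same libraries, and FSCN1 236 and 218 CPM. CD80 had 68.3 CPM in STSG+FAKI and 79.8 CPM in STSG, and CD86 245 and 207 CPM. None of these last 5 was near 2-fold.

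Several other genes at the ends of the day 7 ranking came from few cells. Among the highest log2 ratios were NTS (3.45, from 12 and 4 cells of STSG+FAKI and STSG), PLA2G2D (3.19), SLPI (3.03, from 15 and 13 cells) and DCN (2.54, from 15 and 20 cells). The lowest were HBB, haemoglobin beta (-8.08, from 5 and 9 cells), LPL (-4.09, from 6 and 18 cells), JCHAIN (-3.05), KRTDAP (-2.87), SCIN (-2.31), SPP1 (-2.08), MT1A (-2.05), UBE2C (-1.78), LY6D (-1.69) and TPPP3 (-1.63). With shared clusters weighing the same, a setting without the SPP1-led cluster, SPP1 stood at 0.90, MT1A at 0.58 and TPPP3 at -0.49. Without the top doublet scores HBB stood at -0.13, DCN at 0.42, KRTDAP at 0.44 and LY6D at 2.31, and without cells with a B cell UMI UBE2C stood at 1.33. In summed levels, keratinocyte genes had 2006 CPM in STSG+FAKI, against 948 CPM in STSG, with 2 of 9 at 0 UMIs in the FAKI library, and fibroblast genes 616 CPM, against 363 CPM. B or plasma cell genes had 349 CPM, against 482 CPM, macrophage genes 6157 CPM, against 6723 CPM, and endothelial genes 588 CPM, against 502 CPM. Their part in the result was not tested.

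The interferon difference was not limited to the gated cells. Of the same list, 15 of 24 genes were higher in STSG+FAKI in CCR7-negative HLA-DRA cells, where 1.8% of all 2885 genes were higher and 0.52% lower. In C1Q cells 20 of 25 were higher, against 4.48% of 2368 genes higher and 2.53% lower, and in fibroblast-rich cells 10 of 12, against 1.14% of 2465 genes higher and 0.73% lower. No gene of the list was lower in any of these populations. CXCL10 had 6079 CPM in STSG+FAKI, against 277 CPM in STSG, in CCR7-negative cells, 10970 CPM, against 845 CPM, in C1Q cells and 856 CPM, against 20.2 CPM, in fibroblast-rich cells. IRF1 showed the same direction in all 4 populations, with 496 CPM, against 149 CPM, in gated cells and 443 CPM, against 162 CPM, in fibroblast-rich cells. The populations came from the same pair of libraries and are not independent comparisons.

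**Figure D4:**
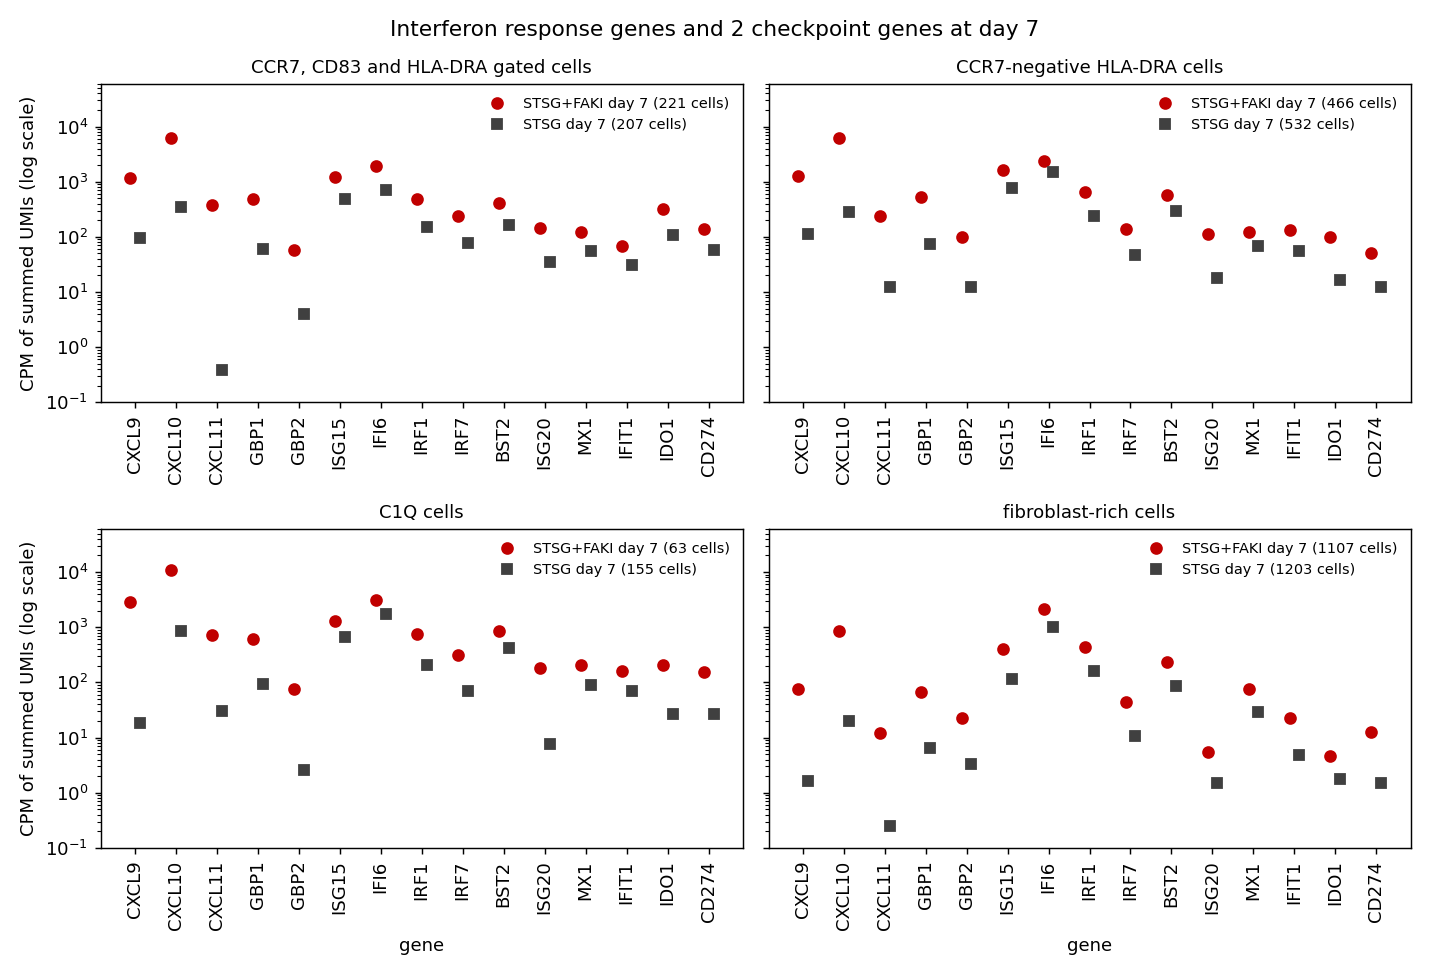
Summed levels in CPM (log axis) of interferon response genes, IDO1 and CD274 at day 7 in 4 populations of cells, with STSG+FAKI as red circles left of STSG as grey squares (1 library each). CXCL10 stands at 6135 and 351 CPM in gated cells and at 856 and 20.2 CPM in fibroblast-rich cells.

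Since the gate is a mixture, the day 7 libraries were also compared inside clusters found after leaving interferon and cytokine genes out of the clustering, for the 6 clusters with at least 10 cells in each library (152 of 221 and 146 of 207 cells). A cluster of 47 cells still led by CCL8, ACOD1, IL27, CXCL10 and CXCL11 was left out, with 42 cells of STSG+FAKI and 5 of STSG. Leaving out the lists thus did not free the clustering of such genes. What the loss of these cells does to the values below was not tested. The list was higher in most of the 6 clusters. In the cluster led by NTS and AQP3 (53 and 33 cells) 16 of 18 genes were higher, against 6.22% of all genes higher and 4.88% lower, with a median log2 ratio of 2.98. In the cluster led by CPSF6 and SPP1 (13 and 35 cells) 18 of 23 were higher, against 10.6% higher and 10.3% lower over all genes, with a median of 1.78. The B or plasma-like cluster (23 and 11 cells) had 13 of 15, against 12.8% higher and 9.06% lower, with a median of 2.05. The endothelial-like cluster (11 and 15 cells) had 9 of 19, against 4.19% higher and 10.5% lower, with a median of 0.97. None of these 4 clusters had a lower gene of the list.

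The macrophage-like cluster and the cluster led by TGM3 and S100A8 had smaller medians in this clustering. The macrophage-like cells (42 and 40 cells) had 7 of 21 genes higher, against 5.3%, 1 lower, against 4.55%, and a median of 0.20. The macrophage-like cluster of the main clustering (22 and 35 cells) had 4 of 17 higher, 1 lower and a median of 0.06. C1Q cells as a whole had 20 of 25 higher and a median of 1.45. CD163, CD68 and APOE were also raised in the CXCL9-led cluster of the main clustering. Of its 69 cells, 41 fell in the 47-cell cluster left out here, and their part was not tested. The TGM3 and S100A8 cluster (10 and 12 cells) had 2 of 11 higher, against 13.5%, 2 lower, against 10.1%, and a median of 0.12. It held 24 of the 54 cells of the TGM3-led cluster of the main clustering. That TGM3-led cluster (15 and 34 cells) had 17 of 24 genes higher, against 10.9%, none lower, against 9.21%, and a median of 1.37. The values for TGM3-led cells thus depended on the clustering used. ISG15 had 705 CPM in STSG+FAKI, against 1177 CPM in STSG, in the macrophage-like cluster and 302 CPM, against 1058 CPM, in the TGM3 and S100A8 cluster. It had 1051 CPM, against 276 CPM, in the NTS and AQP3 cluster and 2281 CPM, against 273 CPM, in the CPSF6 and SPP1 cluster. CXCL10 in the NTS and AQP3 cluster had 1637 UMIs in STSG+FAKI and 0 in STSG. Whether the clusters differ from each other in this response was not tested.

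**Figure D5:**
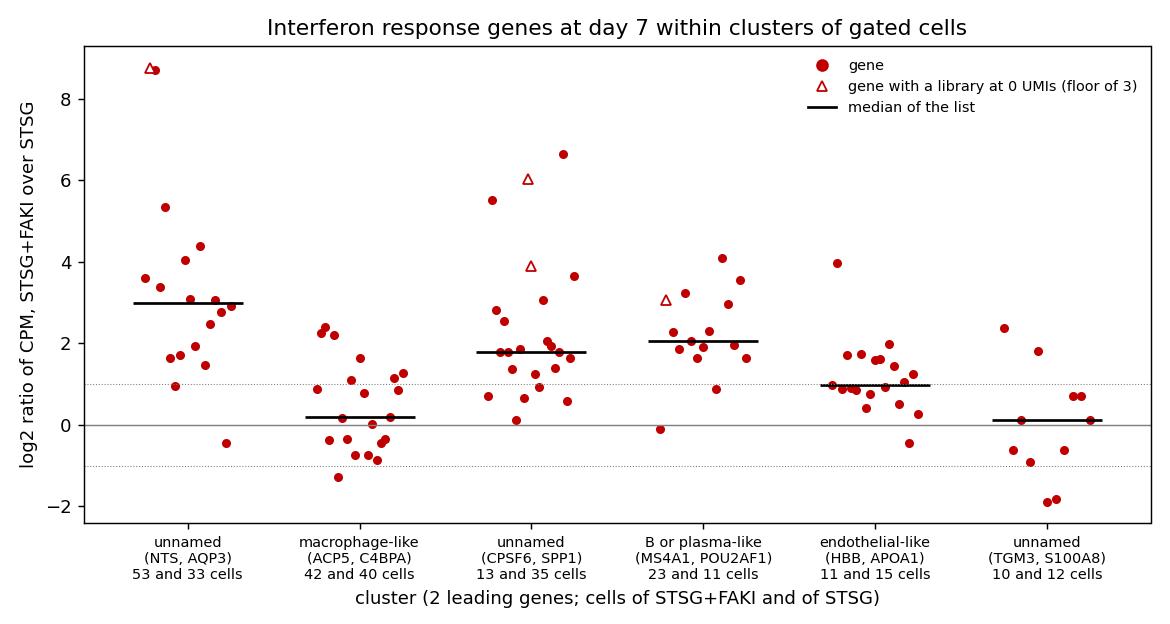
Log2 ratios of CPM, STSG+FAKI over STSG at day 7, of interferon response genes within 6 clusters of gated cells found without those genes; bars mark medians, dotted lines 2-fold, and open triangles genes at 0 UMIs in 1 library, set at the floor of 3. Medians lie at 2.98, 0.20, 1.78, 2.05, 0.97 and 0.12 from left to right.

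At day 90 the comparison rests on 11 gated cells of STSG+FAKI and 33 of STSG. Without shared barcodes 9 of the 11 were left, under the minimum of 10, so the comparison could not be repeated on them. Of 3007 genes 349 (11.6%) were at least 2-fold higher and 308 (10.2%) lower, and with leukocyte RNA required, which left 7 FAKI cells, 196 were higher and 771 lower. RGS16 had 1246 CPM in STSG+FAKI, against 81.3 CPM in STSG, from 5 and 7 cells, and NOCT 85.9 CPM, against 14.2 CPM, from 5 and 6 cells. IL4I1 had 1 UMI in STSG+FAKI and 69 in STSG, SMPDL3A 1 and 79, and GPNMB 0 and 215, the last at least 44.1-fold lower against a floor of 3 UMIs per library. Of 18 mature dendritic cell genes 3 were higher and 10 lower, among the lower ones CD80, CD86, CD274 and IDO1. Summed leukocyte genes had 754 CPM in STSG+FAKI, against 1584 CPM in STSG, macrophage genes 1728 CPM, against 3989 CPM, endothelial genes 3387 CPM, against 2366 CPM, and pericyte or smooth muscle genes 3979 CPM, against 1313 CPM. None of the endothelial or pericyte genes was at 0 in either library, and the part of these cells in the result was not tested. Fewer cells of a kind and less RNA per cell cannot be told apart in such sums. By cluster, 5 of the 11 STSG+FAKI cells were in the cluster led by FCER1A and CD207 and 4 were endothelial-like. Of the rest, 1 was macrophage-like, 1 was in the TGM3 and ARG1 cluster and 0 were mature DC-like. The 33 STSG cells held 6, 4, 5, 4 and 3 cells of these clusters, in the same order.

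Between day 90 and day 7 of the untreated graft (33 and 207 gated cells), immediate early genes were higher and cytokine genes lower at day 90, and most mature dendritic cell genes lay within 2-fold. Of 2755 genes 268 (9.73%) were at least 2-fold higher and 163 (5.92%) lower. TMM scaling moved all log2 ratios by -0.28 and gave 157 higher and 342 lower. Of 16 immediate early genes 10 were higher and none lower, with a median of 1.14 (0.86 with TMM). FOS had 1571 CPM at day 90, against 262 CPM at day 7, and FOSB 533 CPM, against 136 CPM. Of 17 cytokine genes 10 were lower, with a median of -1.09 (-1.37 with TMM).

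CXCL10 had 24.4 CPM at day 90 and 351 CPM at day 7, TNF 10.2 and 77.1 CPM, and CCL17 22.4 CPM from 5 cells and 138 CPM from 28 cells. The mature dendritic cell list had 1 of 20 genes higher and 3 lower, with a median of 0.08, or -0.20 with TMM. The highest ratios were in LSMEM1, PLK2, VWF, ENPP2 and TNS2 (log2 3.75 to 3.32). VWF had 413 CPM at day 90, against 35.8 CPM at day 7, from 6 and 16 cells. At the other end, HBB had 1 UMI at day 90, against 2444 at day 7, LPL 1, against 175, and SPRY2 2, against 168. KRT14 and KRT5 had 0 UMIs at day 90, at least 58.0-fold and 48.3-fold lower than at day 7 against a floor of 3 UMIs per library. The endothelial list had 8 of 9 genes higher at day 90 (summed 2366 CPM, against 502 CPM) and the keratinocyte list 5 of 5 lower (22.4 CPM, against 948 CPM, with 7 of 9 at 0 at day 90). Their part in the result was not tested.

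In the FAKI graft 11 gated cells of day 90 were set against 221 of day 7. Of 2970 genes 716 (24.1%) were higher and 496 (16.7%) lower, and TMM scaling moved all log2 ratios by -0.45 and gave 413 higher and 919 lower. Of 22 interferon genes 14 were lower at day 90 and none higher (summed 3176 CPM, against 14210 CPM), with a median of -1.34, or -1.82 with TMM. CXCL10 had 3 UMIs at day 90, against 12117 at day 7, TNF 1, against 566, and CCL8 0, against 4056, at least 207-fold lower against the same floor. The highest were MIDN, IL1R1 and DNASE1L3 (log2 4.23 to 3.71). Of 15 immediate early genes 10 were higher, with a median of 1.96 (1.51 with TMM), and of 20 mature dendritic cell genes 2 were higher and 13 lower, with a median of -1.12 (-1.57 with TMM). With leukocyte RNA required in 7 cells of day 90, 291 genes were higher and 663 lower. All 11 endothelial genes were higher at day 90 (3387 CPM, against 588 CPM), and their part in the result was not tested. CCR7, which chose the cells, stood at 159 CPM at day 90, against 905 CPM at day 7.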

How the data were processed

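UMI counts per gene and cell barcode were used as the authors deposited them, in 5 filtered 10x matrices of whole-number counts. Cell Ranger and Seurat 3.1.1 are named per the submitters' processing notes, and the matrix headers give software version 3.1.0. The genome build and its annotation are not given in the sources used here. Of 20286 gene IDs, 14674 had a symbol in the files, 677 took one from a symbol table and 4935 had none. Barcodes with at least 500 genes were kept as cells (28654 of 32554) with no mitochondrial limit and with doublets left in. Scrublet scores, at an expected 0.8% doublets per 1000 cells, and a mitochondrial limit of 25% served as alternatives. Each matrix is 1 group, so no sample was averaged.

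Gate, gene lists and comparisons were chosen with earlier results of these data known, so no list is independent evidence. The rule for named genes was the gate and marker genes, list members given as counts with examples, and the 10 largest rises and falls. For edgeR comparisons these were genes with an adjusted p under 0.05, a mean of 50 CPM or more in the higher population and 1 direction in every library. For libraries they were genes at 50 CPM or more in either library with at least 10 UMIs from at least 5 cells in the higher one. Fewer than 10 are named for day 90, and genes such as BATF3, SLA-DQB1 or ISG15 come from the lists.

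Counts were summed per library and population and compared with edgeR 4.0.16 in R 4.3.3 (TMM, filterByExpr, library as block, Benjamini-Hochberg at 0.05). The block pairs the 2 sums of each library, which come from different cells of the same tissue. The 10 gate genes were left out, as were the 5 leukocyte genes against CCR7-negative cells. On simulated counts with known changes the step recovered 90 of 100 genes at 4-fold for either comparison and 99 and 94 of 100 at 16-fold, for CCR7-negative and C1Q cells. P-values measure only the spread over 4 libraries of different treatments and times. Libraries were compared by CPM of summed UMIs, called at 2-fold, with exact conditional binomial intervals at 95%. Unwounded skin (4 gated cells) entered no expression comparison. Gated cells were clustered with Leiden in Scanpy 1.11.5 (2000 variable genes, 20 components, 15 neighbours, resolution 1). A cluster was named when at least 3 markers of a class stood 1.5-fold above the other clusters, made up at least 50% of the measured markers and were more of the 10 leading genes than the markers of any other class, unless the longer list of another class held as many of those 10 genes as its own or more. Alternatives were DESeq2 1.42.0, its size factors, other filters and folds, TMM for library ratios, thinning, stricter gates, and leaving out libraries, B cell RNA, doublet scores or endothelial RNA, the last added after seeing the data. Values of 1 gene of the interferon list are not reported here.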

Additional observations from a re-analysis of the deposited data

How the results depend on the processing

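With 1 library per group, shares and ratios have counting error only, and day 90 values rest on 11 and 33 cells. The gate mixes cell types, and the CCR7-negative cells hold endothelial RNA. Against CCR7-negative cells the 2374 calls ranged from 1131 to 2909 with 1 library left out, and were 1520 after thinning and 568 without endothelial RNA. Against C1Q cells the 893 calls ranged from 221 to 864, and were 1632 with no filter and 564 after thinning. Without the library block, which pairs the sums of a library, the calls were 606 and 189. DESeq2 gave 2095 and 804. The 132 calls between day 7 grafts became 322 at 1.5-fold, 79 at 100 CPM and 1183 with no CPM filter. The 657 between day 90 grafts became 1330, 292 and 1696. The 431 between day 90 and day 7 of STSG became 1028, 205 and 2259, and 648 without B cell UMIs, and the 1212 of STSG+FAKI became 635 at 100 CPM and 3307 with no filter. Shares after thinning were 2.05% in STSG day 7, 0.0297% in STSG+FAKI day 90, 0.382% in STSG day 90 and 0% in unwounded skin. With at least 2 CCR7 UMIs they were 1.90% in STSG+FAKI day 7, 2.07% in STSG day 7 and 0.0631% in unwounded skin. Without B cell UMIs they were 1.52%, 1.34%, 0.0522%, 0.228% and 0% in STSG+FAKI day 7, STSG day 7, STSG+FAKI day 90, STSG day 90 and unwounded skin. When CD79A was not used for this, they were 2.10%, 2.41%, 0.287%, 0.526% and 0.126%, in the same order. At day 7, with shared clusters weighing the same, MT1A (0.58), SPP1 (0.90) and TNF (-1.56) changed sign, KRTDAP (0.44) and LY6D (2.31) did without top doublet scores and UBE2C (1.33) without B cell UMIs. CD320 reversed to 0.53 against CCR7-negative cells without endothelial RNA. The causes were not tested. In total 64 alternatives of these counts and shares, some of them given above, kept the count within 1.5 times or the share within its interval. STSG day 7 against unwounded skin, and STSG+FAKI day 90 without B cell UMIs, were not run because 4 and 2 cells were left.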
